A study of Mus musculus with 36 samples.

Results

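Epididymal white adipose tissue (eWAT), the fat pad beside the testis, was compared between ligatured wild-type (WT) mice fed a 40% high-fat diet (40% HFD) and ligatured WT mice fed a normal diet (ND). The 3 mice of each group were chosen by their labels alone and make up 6 of the 36 libraries of the series. All 6 were male C57BL/6 mice of 16 weeks at collection. Each diet was given for 10 weeks in all. A silk thread, which causes periodontitis where plaque gathers on it, was tied around the upper second molars on both sides after 8 weeks, at an age of 14 weeks, and stayed in place for the last 2 weeks. The ND mice thus carried the ligature too, and the comparison measures the diet in mice with periodontitis. Further groups, with 3 mice each, are used to show where the diet effect differs. They are ligatured WT mice on a 60% HFD and, on ND or 40% HFD, ligatured CCL19-KI mice and WT mice without ligature. In CCL19-KI mice, *Ccl19* was knocked into the *Adipoq* locus and is thus driven in adipocytes. All 18 ligatured mice, among them the CCL19-KI mice on the 60% HFD, also set the spread behind the tests of the main comparison. The labels name 6 groups as ligatured and 6 as not, and they were followed here, although the general description given with the data mentions ligation for all groups.

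White fat stores surplus energy as triglyceride in adipocytes. When energy intake stays high, adipocytes enlarge, secrete more leptin and rebuild the matrix around them, and macrophages that take up lipid gather near stressed cells. The fat pad is also covered by a sheet of mesothelial cells and holds vessels, progenitor cells and immune cells, and all of these contribute RNA to a piece of tissue. In bulk tissue, fewer cells of a type and less RNA per cell cannot be told apart.

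The 6 libraries held 11962228 to 20258438 reads. Levels are given as normalized CPM, the reads of a gene scaled to a common library size, and fold changes as differences of log2(CPM + 1), 40% HFD minus ND, with the standard error (SE). For this comparison, the SE pools the spread of all 18 ligatured mice, and it is not the spread of the 6 mice alone. The 15 adipocyte markers were read in every library, with a mean log2 level of 10.08 to 10.63, and none of them was at 0. Genes of other tissues were present at uneven levels, however. The 23 hepatocyte genes had a mean log2 level of 8.02, 8.30 and 5.40 in the ND mice and of 8.08, 4.22 and 9.43 in the 40% HFD mice, and none of them was at 0. The 10 male germ cell genes were at 2.83 in ND replicate 3 and 2.65 in 40% HFD replicate 2, the 2 libraries with the lowest hepatocyte level, and at 0.45 or below in the others. In ND replicate 1, all 10 germ cell genes were at 0. The 12 epididymis genes were at 1.63 in 40% HFD replicate 1 and at 0.45 or below elsewhere. No library was left out, and values without ND replicate 3 and 40% HFD replicate 2 are given where they change a call.

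**Figure D1:**
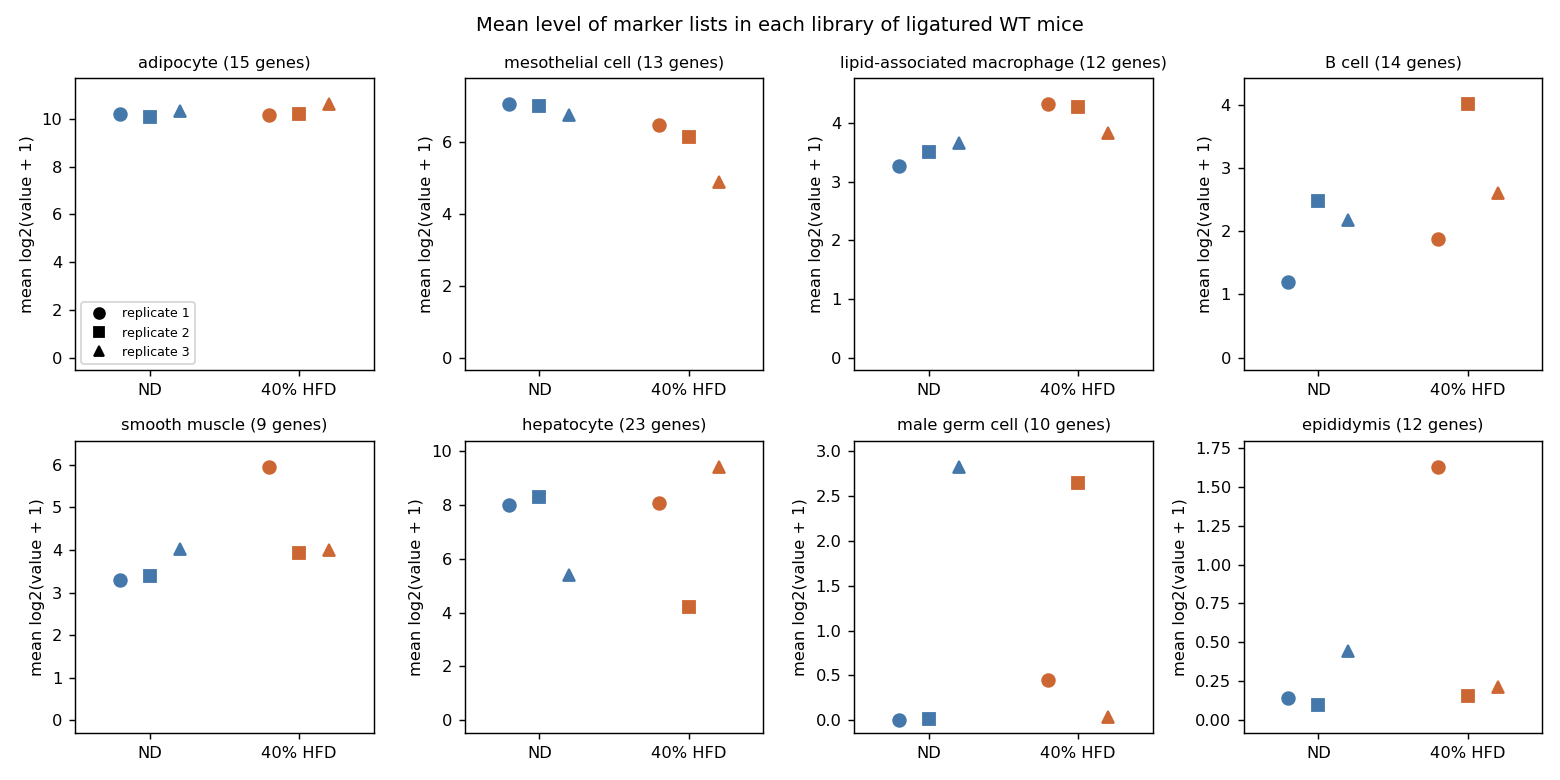
Mean log2(CPM + 1) over the genes of 8 marker lists (y axes) in each library of the ligatured WT mice on ND (blue) and 40% HFD (orange), with 1 symbol per replicate number, which does not pair the mice. Adipocyte genes lay between 10.08 and 10.63 in all 6, mesothelial genes were lower in every 40% HFD mouse than in every ND mouse, and hepatocyte genes were lowest in ND replicate 3 and 40% HFD replicate 2.

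A total of 16653 genes passed the filter on low values. By the criteria for differentially expressed genes (DEGs) that the study used, namely an unadjusted p no higher than 0.05 and a ratio of 1.5 or more, or of 0.67 or less, 731 genes were higher (4.39% of the genes tested) and 691 were lower (4.15%) with the 40% HFD, together 8.54%. After Benjamini-Hochberg adjustment of the limma p, 224 genes had an adjusted p below 0.05 (1.35%), of which 169 were higher (1.01%) and 55 lower (0.33%). The values of the groups did not overlap for any of these 224 genes, as for 19.1% of all genes tested. The median log2 fold change of all genes was 0.01. The adjusted calls rest on the spread shared by the 18 ligatured mice. With only the 6 mice compared in the fit, the lowest adjusted p was 0.114 and no gene passed, with 1961 of 15030 genes (13.0%) at an unadjusted p below 0.05. In the fit of the 18 mice, 724 genes passed without ND replicate 3, and without ND replicate 1, ND replicate 2, 40% HFD replicate 1 or 40% HFD replicate 3 the number was 27, 35, 76 or 46. ND replicate 3 had the highest ND value for 126 of the 169 genes that were higher. Of the 1422 DEGs, 533 (334 higher and 199 lower) stayed DEGs whichever of the 6 mice was left out.

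**Figure D2:**
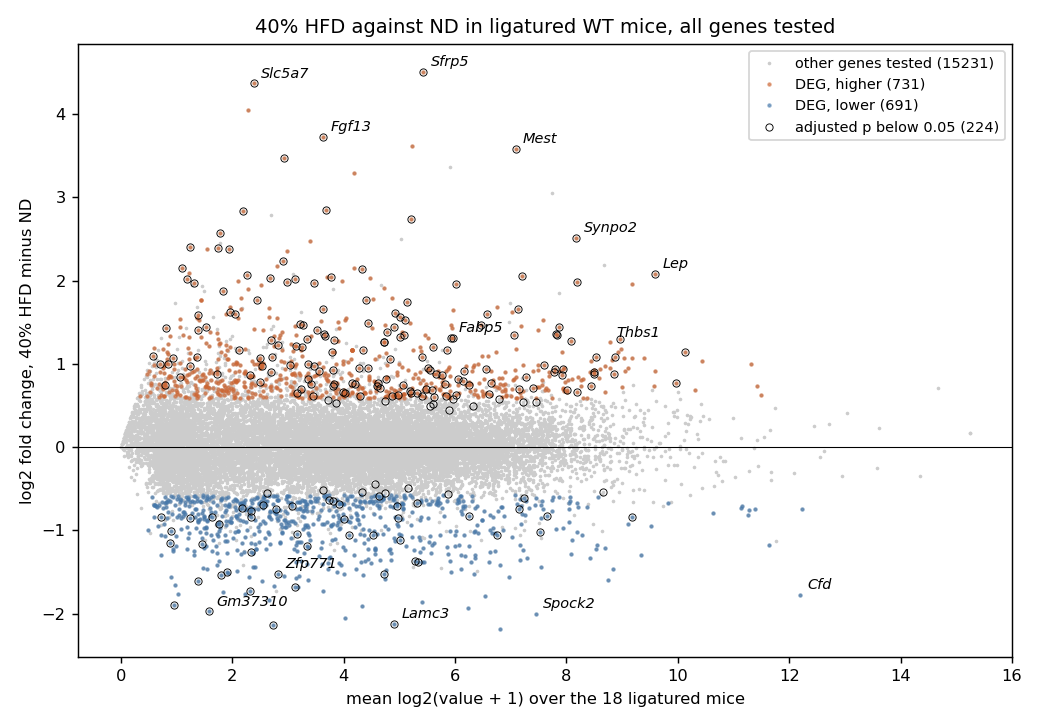
Log2 fold change of 40% HFD against ND in ligatured WT mice (y axis) against mean log2(CPM + 1) (x axis) for the 16653 genes tested. The mean is that of the 6 mice compared, although the axis label names the 18 ligatured mice. Orange and blue points are the 731 higher and 691 lower DEGs, and black rings mark the 224 genes with an adjusted p below 0.05, with *Sfrp5* and *Slc5a7* at the top.

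The counts of DEGs in the lists below can be set beside 4.39% higher and 4.15% lower DEGs among all genes tested. Among the lists, the median change was largest for genes known to increase when fat pads expand. These genes were picked with earlier results of these data known. Of the 7 genes in this list, 6 were DEGs and 5 had an adjusted p below 0.05, all of them higher, and the median log2 fold change was 2.08. The members are *Sfrp5*, *Mest*, *Lep*, *Npr3*, *Trp53inp2*, *Fgf13* and *Bmp3*. Leaving out any 1 mouse kept at least 6 of the 7 as DEGs.

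*Sfrp5* encodes a secreted protein of the frizzled-related family that binds Wnt ligands and is made by adipocytes. It had the smallest p of all genes. Its level was 3.45, 17.2 and 8.20 CPM in the ND mice and 232, 142 and 260.1 CPM in the 40% HFD mice. The lowest 40% HFD mouse was thus far above the highest ND mouse, and the log2 fold change was 4.51 ± 0.44 (limma adjusted p = 0.000863). *Sfrp5* lies on chromosome 19 at 42197971-42202252 (GRCm38, minus strand).

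*Lep* encodes leptin, the hormone by which fat signals its stores to the brain. Its level was 247, 411 and 523 CPM with ND and 1689.8, 1083 and 2207 CPM with the 40% HFD, again without overlap, and the log2 fold change was 2.08 ± 0.46 (limma adjusted p = 0.0422). *Lep* lies on chromosome 6 at 29060220-29073877 (GRCm38, plus strand). The promoters of *Sfrp5* and *Lep* are shown because *Sfrp5* had the smallest p of the list and *Lep* encodes its best-known hormone. They are RefSeq sequences of GRCm38.p6 from 250 bases before to 50 after a start site, written 5′ to 3′ along the gene, with a CCAAT box (CCAAT, or ATTGG on the other strand) in capitals.
*Sfrp5*, chr19:42202203-42202502, minus strand: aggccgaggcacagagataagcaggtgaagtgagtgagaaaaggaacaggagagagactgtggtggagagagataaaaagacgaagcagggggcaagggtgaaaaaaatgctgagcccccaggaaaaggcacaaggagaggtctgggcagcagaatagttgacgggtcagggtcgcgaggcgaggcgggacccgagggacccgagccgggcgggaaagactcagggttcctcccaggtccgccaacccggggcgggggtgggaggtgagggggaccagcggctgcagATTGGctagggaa
*Lep*, chr6:29059971-29060270, plus strand: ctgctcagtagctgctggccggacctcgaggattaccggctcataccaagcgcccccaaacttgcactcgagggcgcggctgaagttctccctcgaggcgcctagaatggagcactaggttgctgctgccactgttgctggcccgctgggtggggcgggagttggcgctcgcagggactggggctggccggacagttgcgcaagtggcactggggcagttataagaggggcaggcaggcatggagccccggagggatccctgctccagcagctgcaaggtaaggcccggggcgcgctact
The first holds 1 CCAAT box and the second none. A CCAAT box is found in 37.4% of all 32851 promoters in the RefSeq table, and in 4 of the 11 promoters of this list (36.4%), a like share. These counts are a description of letters in a window.

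*Mest*, an imprinted gene known as an early marker of adipocyte enlargement, was at 28.1, 51.3 and 38.8 CPM with ND and at 1081, 301 and 318 CPM with the 40% HFD. Replicate 1 was the highest, and all 3 mice were far above the highest ND mouse (log2 fold change 3.58 ± 0.51, limma adjusted p = 0.00507). *Fgf13*, which encodes a member of the fibroblast growth factor family that stays inside the cell, was at 0.896, 2.13 and 5.73 CPM with ND and 30.2, 38.1 and 74.8 CPM with the 40% HFD. The highest ND value was that of replicate 3 and did not reach the lowest 40% HFD value (log2 fold change 3.73 ± 0.44, limma adjusted p = 0.00345). *Trp53inp2*, a regulator of autophagy, was at 118, 142 and 183 against 923, 295 and 707 CPM, also without overlap, with a log2 fold change of 1.98 ± 0.38 (limma adjusted p = 0.0265).

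*Npr3*, the clearance receptor for natriuretic peptides, was at 143, 232 and 756 CPM with ND and 1132, 881 and 1483 CPM with the 40% HFD. The ND mice were uneven, with replicate 3 close to the lowest 40% HFD mouse. The log2 fold change was 1.96 ± 0.51, and the adjusted p of 0.0719 (limma) missed the threshold. *Bmp3*, which encodes a bone morphogenetic protein, was not a DEG, with 62.3, 49.2 and 30.5 CPM against 86.1, 54.3 and 77.6 CPM and a log2 fold change of 0.64 ± 0.31 (limma adjusted p = 0.303). The list was drawn up with earlier results of these data known, so its counts are a description.

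**Figure D3:**
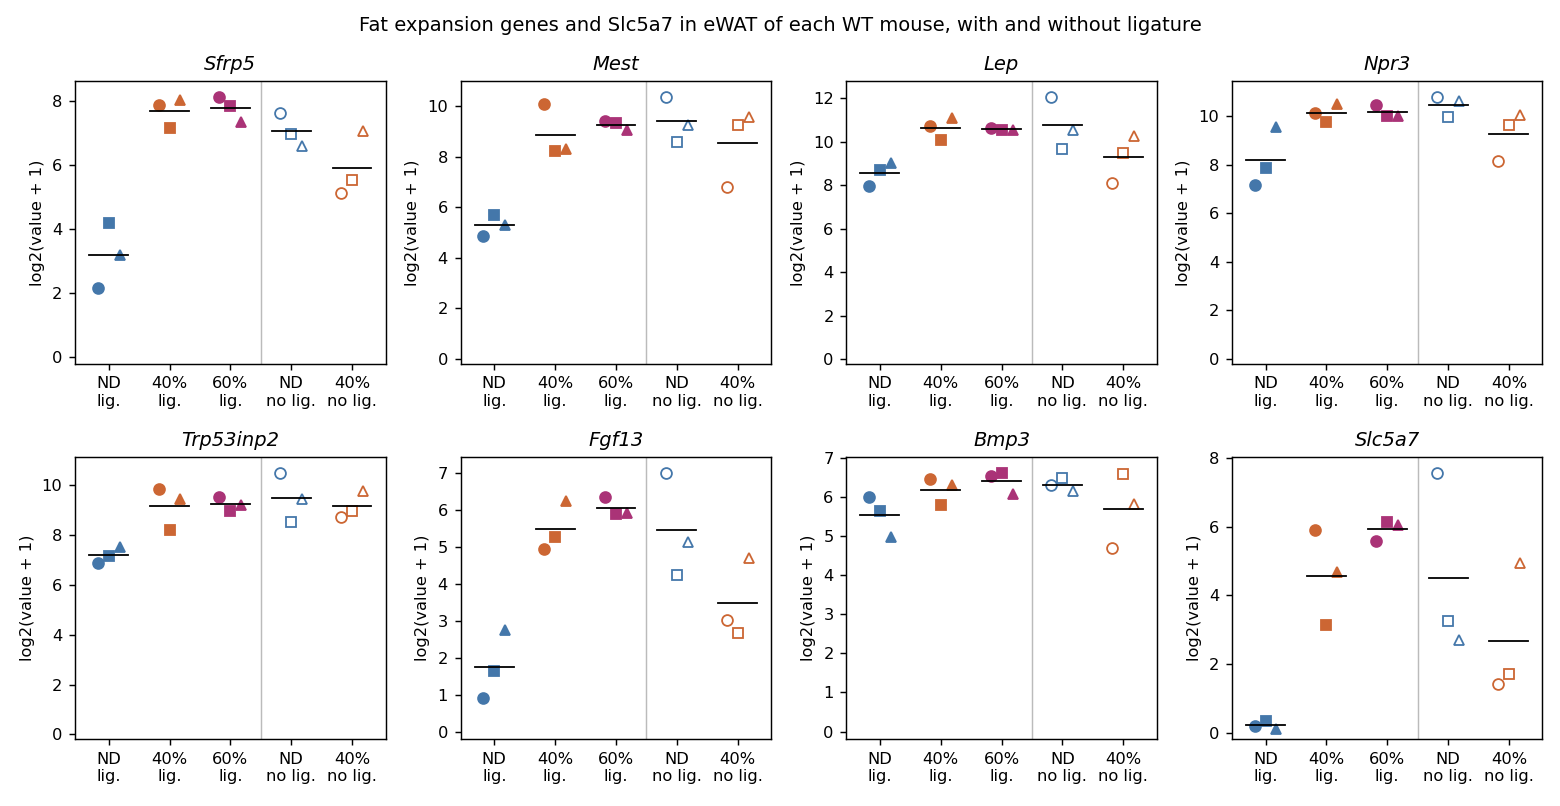
Log2(CPM + 1) of the 7 fat expansion genes and of *Slc5a7* (y axes) in each WT mouse, with 1 symbol per replicate number and the group mean as a line; filled symbols are ligatured mice on ND, 40% HFD or 60% HFD and open symbols mice without ligature. In ligatured mice, *Sfrp5* was at 3.45 to 17.2 CPM with ND and at 142 to 260 CPM with the 40% HFD, whereas without ligature the ND mice were at 96.3 to 199 CPM.

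The largest rises among the DEGs that withstood leaving out each mouse, some of them in this list, were those of *Sfrp5*, *Slc5a7*, *Mup2*, *Fgf13*, *Mest*, *1700047G03Rik*, *Syp*, *Rnu3a*, *Atp2a3* and *Klf14*, with log2 fold changes from 2.58 to 4.51. *Slc5a7*, the high-affinity choline transporter, was almost silent with ND, at 0.138, 0.253 and 0.0774 CPM, and at 59.1, 7.78 and 24.6 CPM with the 40% HFD. No ND mouse came near the lowest 40% HFD mouse, and the log2 fold change was 4.37 ± 0.56 (limma adjusted p = 0.00366). With ND this close to 0 reads, the size depends on the pseudocount, and was 2.49 with a pseudocount of 5 and 7.43 with edgeR. *Syp*, which encodes the vesicle protein synaptophysin, rose from 1.86, 3.24 and 7.97 to 38.5, 24.9 and 38.6 CPM (log2 fold change 2.85 ± 0.50, limma adjusted p = 0.0174). *Atp2a3*, a calcium pump of the endoplasmic reticulum, rose from 9.10, 13.7 and 18.4 to 108, 66.9 and 117 CPM (log2 fold change 2.74 ± 0.37, limma adjusted p = 0.00366). For both genes, all 3 mice on the 40% HFD were above all 3 on ND.

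*Klf14*, an imprinted gene for a transcription factor, had at most 1.01 CPM with ND and 10.5, 5.06 and 7.46 CPM with the 40% HFD (log2 fold change 2.58 ± 0.34, limma adjusted p = 0.00366). The long noncoding RNA *1700047G03Rik* was at 0.483, 0.507 and 4.33 against 33.6, 16.5 and 25.7 CPM (log2 fold change 3.47 ± 0.47, limma adjusted p = 0.00366). Both were low in the ND mice, highest in replicate 3. 2 names among the rises are uncertain, since their genes have near-identical copies between which reads can be split: *Mup2* of the major urinary proteins, at 0, 0.709 and 0 against 50.4, 1.39 and 61.3 CPM, and *Rnu3a*, a U3 small nucleolar RNA, at 0, 1.27 and 1.24 against 8.49, 16.6 and 10.1 CPM. Major urinary proteins are made in liver, and the 40% HFD mouse with the lowest *Mup2* value was also the one with the lowest hepatocyte level. The part of liver RNA in the *Mup2* value was not tested.

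Further genes with the smallest p values were *Zfp771*, *Synpo2*, *Jpt2*, *Duoxa1* and *Gm36827*. *Synpo2*, which encodes an actin-binding protein of muscle, was at 83.6, 108 and 193 CPM with ND and 971, 533 and 638 CPM with the 40% HFD (log2 fold change 2.51 ± 0.32, limma adjusted p = 0.00366). All 40% HFD mice were higher. *Synpo2* is 1 of 9 genes used as smooth muscle markers, and of the others only *Acta2*, smooth muscle actin, was a DEG (72.7, 67.0 and 79.2 against 364, 229 and 138 CPM, log2 fold change 1.62 ± 0.73, limma adjusted p = 0.274). *Acta2* lost the call when any mouse but 40% HFD replicate 3 was left out, while *Synpo2* kept it. The summed level of the 9 genes was 230.3, 241.7 and 371.8 CPM with ND and 1630, 842 and 841 CPM with the 40% HFD. This sum includes *Synpo2* itself, at 971, 533 and 638 CPM with the 40% HFD. The mean log2 level of the 9 genes was 3.31, 3.38 and 4.02 with ND and 5.96, 3.93 and 4.01 with the 40% HFD. Sum and mean were highest in the library with epididymis genes, and the part of smooth muscle in the *Synpo2* value was not tested. *Duoxa1*, a maturation factor of dual oxidases, was at 0.483, 1.06 and 1.08 against 6.66, 5.00 and 5.78 CPM (log2 fold change 1.87 ± 0.24, limma adjusted p = 0.00366), and *Jpt2* was at 16.4, 16.7 and 26.7 against 50.6, 44.3 and 55.7 CPM (log2 fold change 1.32 ± 0.17, limma adjusted p = 0.00366). The noncoding RNA *Gm36827* had 1 read in the 3 ND mice together and 3.51, 4.05 and 5.94 CPM with the 40% HFD, with no overlap (limma adjusted p = 0.00366).

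By adjusted p, 55 genes fell and 169 rose, with median log2 fold changes of -0.85 and 1.07. The 10 largest falls among DEGs that withstood leaving out each mouse were *Slpi*, *BB365896*, *Lamc3*, *Srp54b*, *Spock2*, *Gm37310*, *Gm9973*, *Chst4*, *Gm20458* and *Gm765*, with log2 fold changes from -2.18 to -1.83. *Zfp771*, a zinc finger gene, had the smallest p among the genes that fell. Its level was 11.0, 11.6 and 10.4 CPM with ND and 3.37, 3.23 and 2.97 CPM with the 40% HFD, with little spread in either group (log2 fold change -1.52 ± 0.18, limma adjusted p = 0.00345). *Lamc3*, a laminin chain of basement membranes, fell from 87.4, 47.0 and 56.6 to 19.0, 16.9 and 7.30 CPM (log2 fold change -2.12 ± 0.48, limma adjusted p = 0.0450). The groups did not overlap for either gene.

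*Slpi*, a secreted inhibitor of leukocyte proteases, was at 219, 273 and 222 CPM with ND and 164, 61.2 and 12.9 CPM with the 40% HFD, and *Spock2*, a matrix proteoglycan, was at 532, 361 and 220.4 against 173, 118 and 31.0 CPM. In both, 40% HFD replicate 3 had the lowest value, and the adjusted p of 0.115 and 0.127 (limma) did not pass. *Gm37310* had 4.83, 3.60 and 6.73 CPM with ND and 0.293, 0.886 and 0.401 CPM with the 40% HFD (log2 fold change -1.97 ± 0.30, limma adjusted p = 0.00632). *Gm20458* had no read in any 40% HFD mouse and 1.59, 3.04 and 3.95 CPM with ND, and was thus at least 13.2-fold lower when 3 reads per library are taken as the floor. *Srp54b*, 1 of several near-identical *Srp54* copies and thus an uncertain name, was at 45.6, 44.4 and 16.0 against 15.7, 0.696 and 16.9 CPM, and its groups overlapped. *BB365896* is annotated as antisense, so its reads may come in part from the gene on the other strand if counting ignored strand. It was at 12.3, 15.4 and 11.3 against 0.951, 3.61 and 2.49 CPM (log2 fold change -2.14 ± 0.48, limma adjusted p = 0.0438).

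Mesothelial genes were the list with the most lower DEGs. Of 13 genes tested, 8 were lower DEGs and none was higher, and the median log2 fold change was -1.14. The 8 were *Upk3b*, *Lrrn4*, *Krt19*, *Krt7*, *Upk1b*, *Wt1*, *Muc16* and *Rspo1*. *Wt1*, a transcription factor that marks the mesothelium, was at 76.5, 57.2 and 70.9 CPM with ND and 38.5, 38.02 and 18.5 CPM with the 40% HFD (log2 fold change -1.14 ± 0.40). *Upk3b*, a uroplakin found on mesothelial cells, was at 575, 536 and 522 against 419, 203 and 116 CPM (log2 fold change -1.34 ± 0.60), and the keratin gene *Krt19* at 135, 129 and 114 against 79.3, 69.5 and 19.1 CPM (log2 fold change -1.39 ± 0.58). The lowest value of all 6 mice was that of 40% HFD replicate 3 for all 13 genes. None of the 13 passed after adjustment, and *Upk1b* and *Wt1* had the smallest adjusted p, 0.176 and 0.161 (limma). Without 40% HFD replicate 3, none of the 13 genes was a DEG and the median was -0.60. Without ND replicate 1 or ND replicate 2, only 2 were DEGs. Without ND replicate 3, 4 were DEGs, without it and 40% HFD replicate 2 together 5 were, and edgeR on the recovered reads called 2. How much of the mesothelial sheet a piece of tissue holds, and its part in these values, was not tested.

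Of 18 lipogenesis genes, 1 was a higher and 1 a lower DEG, which is near the 8.54% of all genes tested, and the median log2 fold change was 0.14. *Pnpla3*, a lipid droplet protein that follows feeding, was at 5.72, 7.09 and 47.8 CPM with ND and 33.8, 25.4 and 55.5 CPM with the 40% HFD. ND replicate 3 lay among the 40% HFD mice (log2 fold change 1.43 ± 0.58, limma adjusted p = 0.223). *Acacb*, the acetyl-CoA carboxylase of the mitochondrial membrane, was at 674, 471 and 224 against 196, 131 and 332 CPM (log2 fold change -1.02 ± 0.41, limma adjusted p = 0.217), with overlap. *Fasn*, the fatty acid synthase, was not a DEG: ND replicate 3 was at 2797 CPM, whereas the other ND mice were at 413 and 460 CPM, and the 40% HFD mice were at 1501, 807 and 1736 CPM. *Scd1*, the stearoyl-CoA desaturase, was at 21879, 22509.9 and 17247 against 40436, 28781 and 31686 CPM. Its groups did not overlap, but it was not a DEG (log2 fold change 0.71 ± 0.50, limma adjusted p = 0.510).

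Of 7 genes that supply NADPH for synthesis, 2 were higher DEGs. *G6pdx*, the first enzyme of the pentose phosphate pathway, was at 124, 135 and 152 CPM with ND and 292, 231 and 298 CPM with the 40% HFD, clear of each other (log2 fold change 0.99 ± 0.18, limma adjusted p = 0.0204). *Pgd*, a later enzyme of the same pathway, was at 80.8, 72.6 and 155 against 204, 132 and 234 CPM (log2 fold change 0.92 ± 0.26, limma adjusted p = 0.0982), with ND replicate 3 among the 40% HFD mice.

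Among 25 cholesterol synthesis genes, 4 were higher DEGs and none was lower. The median log2 fold change was 0.40, and none passed after adjustment. *Hmgcs1*, which forms HMG-CoA, was at 148, 127 and 116 CPM with ND and 399, 133 and 283 CPM with the 40% HFD. *Insig1*, a brake on cholesterol synthesis, was at 67.4, 54.2 and 69.3 against 138, 62.9 and 125 CPM. In both, 40% HFD replicate 2 stayed within the ND range, and the log2 fold changes were 0.92 ± 0.33 and 0.69 ± 0.24 (limma adjusted p = 0.163 and 0.164). *Fdps*, the farnesyl diphosphate synthase, was at 5.72, 5.88 and 13.8 against 12.9, 14.6 and 22.6 CPM (log2 fold change 0.97 ± 0.38), and the sterol dehydrogenase *Nsdhl* at 10.4, 9.12 and 14.9 against 19.5, 12.9 and 20.9 CPM (log2 fold change 0.59 ± 0.22). Without 40% HFD replicate 3 or ND replicate 2, 1 gene was a DEG, without 40% HFD replicate 1 or ND replicate 1, 2 were, and without ND replicate 3, alone or together with 40% HFD replicate 2, 8 were.

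Cholesterol genes are switched on by SREBP proteins, which bind sterol response elements together with NF-Y on CCAAT boxes. The promoters of *Hmgcs1* and *Insig1* are shown, written as above, with 3 motifs in capitals: the sterol response element TCACNCCAC, the E-box CACGTG and the CCAAT box, each sought on both strands.
*Hmgcs1*, chr13:119690101-119690400, plus strand: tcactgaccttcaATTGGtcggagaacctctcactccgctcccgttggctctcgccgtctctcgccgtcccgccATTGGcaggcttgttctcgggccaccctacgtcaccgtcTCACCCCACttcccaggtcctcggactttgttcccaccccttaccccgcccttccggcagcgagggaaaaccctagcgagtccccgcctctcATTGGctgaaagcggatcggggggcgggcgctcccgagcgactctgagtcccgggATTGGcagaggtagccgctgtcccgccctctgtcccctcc
*Insig1*, chr5:28071162-28071461, plus strand: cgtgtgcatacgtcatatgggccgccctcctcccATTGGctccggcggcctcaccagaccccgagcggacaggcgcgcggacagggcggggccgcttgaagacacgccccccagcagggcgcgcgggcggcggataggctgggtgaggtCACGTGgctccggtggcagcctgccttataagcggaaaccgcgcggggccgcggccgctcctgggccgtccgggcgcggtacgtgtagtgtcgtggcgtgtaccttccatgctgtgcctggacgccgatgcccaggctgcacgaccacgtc
*Hmgcs1* holds 1 sterol response element of these letters and 4 CCAAT boxes, and *Insig1* holds 1 E-box and 1 CCAAT box. Of the 17 cholesterol synthesis genes in the table, 16 have a CCAAT box, 4 an E-box and 1 the sterol response element. By promoter, CCAAT was found in 80.0% of the 20 promoters of this list against 37.4% of all promoters, the E-box in 20.0% against 7.15%, and the sterol response element in 5.00% against 1.24%. In promoters of the genes tested, the shares were 37.5% for CCAAT, 9.22% for the E-box and 1.16% for the sterol response element. Lipogenesis promoters had CCAAT in 63.2%, the E-box in 15.8% and the sterol response element in 5.26% of 19.

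Uptake and storage genes rose in part. Of 19 genes for fatty acid uptake and triglyceride synthesis, 4 were higher DEGs and none was lower, while the median was -0.02. *Fabp5*, a fatty acid binding protein of adipocytes and macrophages, was at 37.0, 33.8 and 42.9 CPM with ND and 91.7, 75.7 and 125 CPM with the 40% HFD (log2 fold change 1.31 ± 0.20, limma adjusted p = 0.00658). *Cd36*, the fatty acid translocase, was at 2269, 2069.9 and 2711 against 3351, 3662 and 3773 CPM (log2 fold change 0.62 ± 0.24, limma adjusted p = 0.206). The groups were separate for both. *Dgat2*, which completes triglyceride synthesis, was at 245, 259.7 and 493 against 679, 338 and 989 CPM with overlap (log2 fold change 0.95 ± 0.35), and *Angptl4*, an inhibitor of lipoprotein lipase, at 266, 266 and 271 against 377, 378 and 461 CPM without (log2 fold change 0.59 ± 0.17).

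Of 19 genes of lipolysis and the lipid droplet, 2 were higher DEGs, against 4.39% of all genes tested. *Aqp7*, the glycerol channel of adipocytes, was at 64.7, 64.2 and 67.0 against 163, 109 and 157 CPM (log2 fold change 1.09 ± 0.29, limma adjusted p = 0.0728), and *Mgll*, which releases glycerol from monoglycerides, at 331, 322 and 587 against 763, 530.0 and 1105 CPM (log2 fold change 0.94 ± 0.29, limma adjusted p = 0.124). Of 22 fatty acid oxidation genes, *Acadm* was a higher DEG and *Acot2* a lower one, with log2 fold changes of 0.59 ± 0.25 and -0.65 ± 0.20. This share is near the 8.54% of DEGs among all genes tested. Of 17 genes of branched-chain amino acid breakdown, only *Bcat2*, the mitochondrial transaminase of the first step, was a DEG, at 196, 148 and 151 against 59.0, 82.1 and 113 CPM (log2 fold change -0.99 ± 0.24, limma adjusted p = 0.0583). None of 25 oxidative phosphorylation genes and none of 15 genes of insulin signalling and glucose uptake was a DEG, with medians of 0.20 and -0.18. *Atp5b* of the ATP synthase, for example, was at 996, 1041 and 998 against 1216, 1011 and 1518 CPM, and *Akt2*, a kinase of insulin signalling, at 379, 347 and 271 against 371, 261 and 337 CPM. Among 9 thermogenesis genes, *Cox7a1* was higher (1.25 ± 0.35) and the coactivator gene *Ppargc1a* lower (-1.14 ± 0.46).

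The adipokine genes went both ways. Besides *Lep* and *Angptl4*, *Cfd* and *Lcn2* were DEGs, both lower, among 14 genes. *Cfd*, adipsin or complement factor D, was at 10552, 8444 and 7249.6 CPM with ND and 1648, 3593 and 2714 CPM with the 40% HFD. Each 40% HFD mouse was below each ND mouse, but the SE, which pools the 18 ligatured mice, was large (log2 fold change -1.78 ± 0.61, limma adjusted p = 0.154). *Lcn2*, lipocalin 2, was at 11.2, 8.97 and 11.8 against 12.1, 4.43 and 3.61 CPM, with overlap (log2 fold change -0.75 ± 0.34). Of 15 adipocyte transcription factor genes, 3 were lower and 1 was higher. *Cebpd*, an early factor of adipogenesis, fell from 99.98, 118 and 87.2 to 47.0, 51.6 and 73.1 CPM (log2 fold change -0.83 ± 0.19, limma adjusted p = 0.0439). *Pparg*, the main regulator of fat cells, was at 294, 210.4 and 136 against 118, 99.6 and 128 CPM (log2 fold change -0.82 ± 0.32, limma adjusted p = 0.198), and *Cebpb* had a log2 fold change of -0.76 ± 0.35. *Zfp423*, a preadipocyte factor, was higher (0.83 ± 0.28), with overlap.

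**Figure D4:**
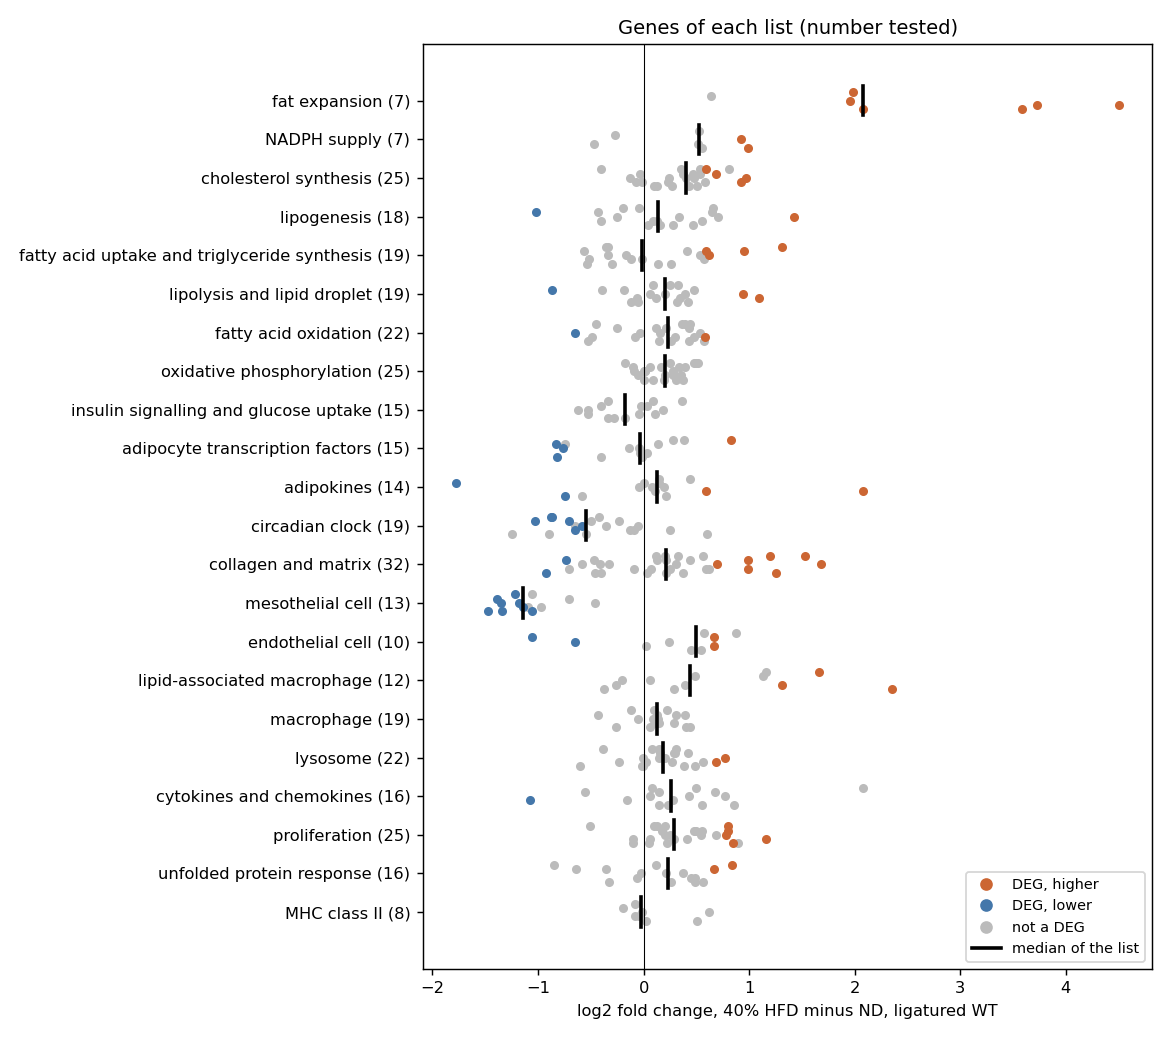
Log2 fold change of 40% HFD against ND in ligatured WT mice (x axis) for each gene of 22 lists (rows, with the number of genes tested), with higher DEGs in orange, lower DEGs in blue, other genes in grey and the list median as a black bar. Fat expansion genes had a median of 2.08 and mesothelial genes one of -1.14, and clock genes one of -0.54.

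Clock genes made up another group of falls. The clock is a loop in which CLOCK and ARNTL bind E-boxes and switch on *Per*, *Cry*, *Nr1d* and the output factors. The products of *Per*, *Cry* and *Nr1d* in turn repress the loop. Of 19 clock genes, 6 were lower DEGs, none was higher, and the median was -0.54. *Bhlhe41*, a repressor of the loop, was at 32.1, 20.1 and 23.9 CPM with ND and 16.3, 10.6 and 13.2 CPM with the 40% HFD (log2 fold change -0.87 ± 0.22, limma adjusted p = 0.0610). *Nr1d1*, the heme receptor that represses *Arntl*, was at 166, 89.6 and 119 against 76.3, 66.6 and 40.0 CPM (log2 fold change -1.03 ± 0.42, limma adjusted p = 0.230). Neither overlapped between the groups.

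*Per1*, a core repressor, was at 142, 112 and 75.6 against 78.3, 47.9 and 72.4 CPM (log2 fold change -0.71 ± 0.24), and *Per2* at 58.3, 68.9 and 42.0 against 40.4, 15.6 and 40.8 CPM (log2 fold change -0.88 ± 0.41). *Cry2* and the output factor *Tef* had log2 fold changes of -0.58 ± 0.22 and -0.65 ± 0.28. In all 4, ND replicate 3 had the lowest ND value and 40% HFD replicate 2 the lowest of all 6. None of the 6 passed after adjustment. *Arntl* itself, which peaks opposite to its targets, was not a DEG, at 3.24, 2.58 and 6.11 against 4.03, 12.0 and 4.81 CPM, with 40% HFD replicate 2 the highest. Without 40% HFD replicate 2, 2 of the 6 DEGs were left, without ND replicate 1 only 1 was, and without ND replicate 2, 3 were. Without ND replicate 3 and 40% HFD replicate 2 together, 3 were DEGs. The hour of collection is not given in the sources used here, and its part in these values was not tested.

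The promoters of *Per1* and *Bhlhe41* are shown because both carry an E-box, again with E-box and CCAAT box in capitals.
*Per1*, chr11:69098699-69098998, plus strand: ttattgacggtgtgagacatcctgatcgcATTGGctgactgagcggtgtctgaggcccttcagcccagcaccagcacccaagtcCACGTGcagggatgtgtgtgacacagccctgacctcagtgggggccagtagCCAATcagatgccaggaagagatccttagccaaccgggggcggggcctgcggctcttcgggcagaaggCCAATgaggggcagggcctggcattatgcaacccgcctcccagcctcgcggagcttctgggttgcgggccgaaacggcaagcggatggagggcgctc
*Bhlhe41*, chr6:145865371-145865670, minus strand: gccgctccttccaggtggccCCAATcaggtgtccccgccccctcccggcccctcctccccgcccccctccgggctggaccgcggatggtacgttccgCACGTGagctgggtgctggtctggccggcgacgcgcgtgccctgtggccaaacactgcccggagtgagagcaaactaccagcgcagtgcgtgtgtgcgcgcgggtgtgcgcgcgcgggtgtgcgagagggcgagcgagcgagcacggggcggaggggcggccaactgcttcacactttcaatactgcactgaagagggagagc
Each holds 1 E-box, and *Per1* holds 3 CCAAT boxes and *Bhlhe41* 1. Another *Per1* promoter of the RefSeq set holds no E-box. Of the 16 clock genes in the table, 5 have an E-box in at least 1 promoter, and of the 5 among the 6 falling ones, *Per1*, *Bhlhe41* and *Tef* do. By promoter this is 28.6% of 21, against 7.15% of all promoters and 9.22% of promoters of the genes tested. The scan of the clock and fat expansion genes was chosen after seeing the data.

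Matrix genes changed in both directions. Of 32 genes, 7 were higher DEGs and 2 lower, and the median was 0.21. Those higher were *Col5a3*, *Col12a1*, *Col15a1*, *Sparc*, *Postn*, *Tnc* and *Thbs1*, and those lower were *Col1a1* and *Dcn*. *Tnc*, tenascin C, a matrix protein of tissue repair, was at 1.24, 1.93 and 1.63 CPM with ND and 5.56, 3.23 and 6.50 CPM with the 40% HFD (log2 fold change 1.20 ± 0.33, limma adjusted p = 0.0905). *Thbs1*, thrombospondin 1, was at 233, 342 and 283 against 358, 1275 and 680.0 CPM (log2 fold change 1.26 ± 0.55, limma adjusted p = 0.254). In neither did the groups overlap.

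*Col5a3* was at 40.8, 30.7 and 163 against 255, 114 and 239 CPM (log2 fold change 1.68 ± 0.53), and the basement membrane collagen *Col15a1* at 61.0, 70.5 and 321 against 353, 201 and 476 CPM (log2 fold change 1.53 ± 0.52). In both, ND replicate 3 lay among the 40% HFD mice. *Sparc*, a collagen-binding protein, was at 1564, 1450.0 and 2616 against 5692, 2367 and 3474 CPM (log2 fold change 0.99 ± 0.33). *Col1a1*, the main fibrillar collagen, was at 813, 488 and 1092 against 879, 281 and 255 CPM and just met the criteria with overlap (log2 fold change -0.93 ± 0.43, limma adjusted p = 0.290), and *Dcn*, decorin, was at 3373, 2474 and 2927 against 2042, 1942 and 1335 CPM (log2 fold change -0.74 ± 0.28). None of the 9 passed after adjustment.

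Vessel and progenitor genes were mixed. Of 10 endothelial genes, *Cdh5* (0.66 ± 0.30) and *Flt1* (0.67 ± 0.31) were higher, whereas *Kdr* (-0.65 ± 0.27) and *Esam* (-1.06 ± 0.22) were lower on the log2 scale. *Esam*, an endothelial adhesion molecule, was the clearest, at 38.1, 35.5 and 24.9 CPM with ND and 17.7, 17.9 and 10.6 CPM with the 40% HFD (limma adjusted p = 0.0356). Of 12 progenitor and fibroblast genes, *Dpp4* (-0.69 ± 0.21) and *Clec11a* (-0.89 ± 0.31) were lower and *Cd55* (0.75 ± 0.34) was higher.

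None of 19 general macrophage genes was a DEG, and their median was 0.12. *Lyz2*, lysozyme, was at 739, 798 and 951 against 1013, 1298 and 774 CPM, and *Csf1r*, the receptor for macrophage growth factor, at 286, 245 and 302 against 295, 293 and 221 CPM. Of 12 genes of lipid-associated macrophages, 3 were higher DEGs, *Mmp12*, *Itgax* and *Fabp5*, and the median was 0.44. *Mmp12*, macrophage elastase, was at 0.483, 4.91 and 3.95 against 12.7, 36.7 and 10.2 CPM (log2 fold change 2.35 ± 1.06, limma adjusted p = 0.272), and *Itgax*, which encodes CD11c, at 0.827, 2.94 and 5.18 against 16.3, 10.3 and 6.26 CPM (log2 fold change 1.67 ± 0.62, limma adjusted p = 0.186). For both, every 40% HFD mouse was above every ND mouse, but the SE, which pools the 18 ligatured mice, was wide. *Fabp5* is also a gene of adipocytes. The summed level of the 12 genes was 279 to 323 CPM with ND and 402 to 472 CPM with the 40% HFD. Of this sum, *Fabp5* alone gave 33.8 to 42.9 CPM with ND and 75.7 to 125 CPM with the 40% HFD. Of the 12 genes, 9 had a log2 fold change above 0 and 3 below 0.

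The genes that the study names for eWAT were mostly low. *Spp1*, osteopontin, was at 0.690, 0.709 and 0.310 CPM with ND and 1.61, 1.96 and 4.17 CPM with the 40% HFD, separate but not a DEG (log2 fold change 1.13 ± 0.93, limma adjusted p = 0.587). *Atp6v0d2* behaved likewise, at 1.31, 1.62 and 1.70 against 6.22, 5.88 and 2.65 CPM (log2 fold change 1.16 ± 0.92), whereas *Gpnmb* was at 28.9, 28.0 and 33.3 against 35.6, 26.8 and 18.0 CPM (log2 fold change -0.21 ± 0.88). The SE of these genes pools all 18 ligatured mice, so the missed calls do not rest on the WT mice on ND and 40% HFD alone. *Tnf* was at 0, 0.203 and 0.155 against 0.659, 1.01 and 0.321 CPM, with at most 16 reads, and had a log2 fold change of 0.56 ± 0.28 (limma adjusted p = 0.335). *Il1b* was below the filter, with 3 to 5 reads with ND and 3, 16 and 3 reads with the 40% HFD. *Ccl2* (0.67 ± 0.50) and *Ccl19* (0.15 ± 0.41) were not DEGs. Neither were *Cyp2b9*, *Cyp2a22*, *Onecut1*, *Acot3* and *Kap*, which were at 0.464 CPM or below in ND replicate 3, the library with the lowest hepatocyte level of the ND mice. Of the 13 genes named for eWAT by the study, 12 were tested, and *Srp54b* was the only DEG.

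Among 16 cytokine and chemokine genes tested, only *Il33* was a DEG, at 55.4, 73.6 and 48.6 against 37.5, 17.1 and 30.7 CPM (log2 fold change -1.08 ± 0.45, limma adjusted p = 0.238). Of 22 lysosome genes, the cathepsins *Ctsd* and *Ctsb* were higher, a share near the 8.54% of DEGs among all genes tested. *Ctsd* was at 744, 799 and 765 against 1419, 1232 and 1298 CPM (log2 fold change 0.77 ± 0.17, limma adjusted p = 0.0448) and *Ctsb* at 937, 906 and 1192 against 1809, 1384 and 1678 CPM (log2 fold change 0.68 ± 0.19, limma adjusted p = 0.0880), and neither overlapped. None of 8 MHC class II genes, 8 dendritic cell genes and 10 T and NK cell genes was a DEG. Of 12 B cell genes, *Ighm* (1.45 ± 0.43), *Bank1* (1.34 ± 0.58) and *Ighd* (1.01 ± 0.41) were higher, with overlap in each. The mean log2 level of B cell genes was 4.02 in 40% HFD replicate 2 and 1.19 to 2.61 in the others, and without that mouse 1 of the 3 calls was left. Without ND replicate 1 it was also 1, and without 40% HFD replicate 1 it was 10.

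Of 19 interferon-stimulated genes, *Mx1* was higher (0.66 ± 0.18) and *Oasl2* lower (-1.28 ± 0.39), again a share near the 8.54% of all genes tested. *Retnlg*, a neutrophil gene, and *Kit*, a mast cell receptor, were the only DEGs of their lists, both lower (-0.66 ± 0.30 and -0.58 ± 0.25). Of 16 genes of the unfolded protein response, *Edem1* (0.84 ± 0.21) and *Sdf2l1* (0.66 ± 0.30) were higher, against 4.39% of all genes tested. Of 25 proliferation genes, 5 were higher DEGs and none was lower: *Top2a*, *Ccnb1*, *Bub1*, *Mcm5* and *Cenpf*. *Top2a*, the topoisomerase of dividing cells, was at 2.41, 4.36 and 9.13 CPM with ND and 14.4, 19.9 and 5.37 CPM with the 40% HFD (log2 fold change 1.16 ± 0.41). *Ccnb1*, the mitotic cyclin, was at 0.483, 0.811 and 0.851 against 2.63, 1.96 and 1.44 CPM (log2 fold change 0.80 ± 0.22, limma adjusted p = 0.0869). 40% HFD replicate 3 was the lowest of its group in both, and without it 12 of the 25 were DEGs. Without ND replicate 1, 3 were, and without ND replicate 3, 8 were higher and 1 was lower. Proliferation genes are also used by male germ cells and B cells, whose genes were high in 40% HFD replicate 2, and without that mouse, also when ND replicate 3 was left out as well, 3 were higher DEGs and 1 a lower one. The part of these cells was not tested.

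The same diet comparison was set beside that in WT mice without ligature, which shares no mouse with it. There, 1529 genes were higher DEGs (9.52% of 16059 tested) and 943 lower (5.87%), and 611 had an adjusted p below 0.05 (3.8%, limma). All 224 genes with an adjusted p below 0.05 in ligatured mice were tested there as well, and 49 of them (21.9%) had the same direction, against 44.3% of the 15926 genes tested in both. Of the 224, 3 were DEGs in the same direction and 50 in the opposite direction. Without ligature, all 23 hepatocyte genes were higher DEGs with the 40% HFD, with a median log2 fold change of 8.62, against 0.08 with ligature. Their part in these counts was not tested.

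Without ligature, *Sfrp5* was at 199, 125 and 96.3 CPM with ND and at 34.2, 45.6 and 133 CPM with the 40% HFD. The ND mice without ligature were thus far above the ligatured ND mice and overlapped the ligatured mice on the 40% HFD, and the log2 fold change was -1.16. These levels are high for mice on a normal diet, and whether the labels of these libraries are right was not tested. A wrong label would bear on every difference between mice with and without ligature. *Ccl19*, the gene knocked in for the CCL19-KI mice, was also high in a library of this unligatured WT group on ND, and whether its genotype label is right was not tested either. *Lep* was at 4217, 809 and 1513 CPM with ND and 278, 714 and 1235 CPM with the 40% HFD, and *Mest* at 1315, 389 and 613 CPM against 112, 611 and 766 CPM. The medians of the list were 2.08 with and -1.16 without ligature, where 2 of the 7 genes were lower DEGs and none was higher. For the mesothelial genes the medians were -1.14 and 1.06, with 8 of 13 lower DEGs with ligature and 9 of 13 higher ones without. For the clock genes the medians were -0.54 and 0.22.

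The difference of the 2 diet effects was tested directly in the 12 WT mice. It was 5.67 ± 0.81 for *Sfrp5*, 5.71 ± 1.06 for *Fgf13*, 4.44 ± 1.04 for *Mest* and 3.54 ± 0.91 for *Lep* on the log2 scale, with adjusted p of 0.0632, 0.0632, 0.0831 and 0.0971 (limma). No gene of 16059 passed, although 3100 (19.3%) had an unadjusted p below 0.05. edgeR called 1 gene. Without ligatured ND replicate 3, 149 genes passed, without ligatured 40% HFD replicate 3, 83 did, and without any other mouse 0 to 10 did. Cage, cohort and date are not given in the sources used here, and differences of that kind between ligatured and unligatured mice cannot be told apart from the ligature.

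**Figure D5:**
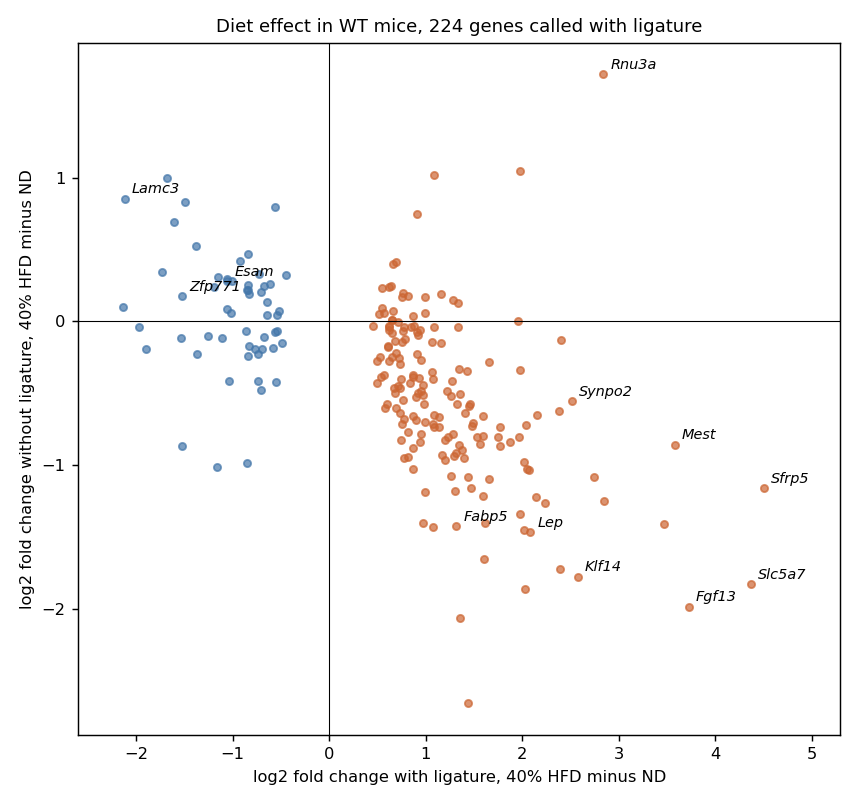
Log2 fold change of 40% HFD against ND in WT mice without ligature (y axis) against that in ligatured WT mice (x axis) for the 224 genes with an adjusted p below 0.05 in ligatured mice, higher in orange and lower in blue. Most points lie in the quadrants of opposite sign, and 49 of the 224 have the same sign in both.

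In ligatured CCL19-KI mice, which share no mouse with the WT groups either, 210 of the 224 genes (93.8%) had the same direction, against 66.6% of all genes tested, and 138 were DEGs in the same direction and none in the opposite one. In that comparison, 1435 genes were higher DEGs (8.62%) and 1610 lower (9.67%), and 1943 had an adjusted p below 0.05 (11.7%, limma). Genes of other tissues and cells moved there too: 21 of 23 hepatocyte genes were higher DEGs (median 5.14), and 14 of 14 skeletal muscle genes (median -2.62), 8 of 9 smooth muscle genes (median -3.21) and 6 of 6 mast cell genes (median -1.89) were lower ones. Their part in the counts was not tested. The fat expansion list had a median of 1.80 there, and all 7 genes were higher DEGs. *Sfrp5* was at 17.5, 22.5 and 32.0 CPM with ND and 424, 252 and 185 CPM with the 40% HFD in these mice. The diet effect differed by genotype for 79 genes (0.474% of those tested, adjusted p below 0.05, limma), against 1811 (10.9%) at an unadjusted p below 0.05, and 14 of these were DEGs in ligatured WT mice. Among the genes named above, it differed for *Zfp771*, *Rnu3a* and *Gm20458*, whose log2 fold changes in CCL19-KI mice were 0.38, -0.35 and 0.24.

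The 60% HFD was compared with the same ND mice and gave 1431 higher (8.59%) and 1002 lower DEGs (6.02%), with 1214 genes at an adjusted p below 0.05 (7.29%, limma). Since the ND mice are shared, only the direct difference of the diets was tested. No gene differed between the 60% HFD and the 40% HFD in ligatured WT mice by the adjusted p (limma; edgeR also called 0), and 1506 (9.04%) had an unadjusted p below 0.05. *Sfrp5* was at 277, 232 and 164 CPM with the 60% HFD, which overlapped the 142 to 260 CPM of the 40% HFD. *Lep* was at 1590.1, 1477 and 1494 CPM, within the range of the 40% HFD mice.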

How the data were processed

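RNA of eWAT from 36 mice was sequenced as rRNA-depleted, directional, paired-end libraries. Per the labels and the processing notes, the authors used Trimmomatic 0.38, RSEM 1.3.0, Bowtie2 and edgeR. The build is given as mm10 in the methods and GRCm39 in the notes. The deposited values are a signal, CPM scaled by edgeR, for 24750 genes, and whole reads could be recovered from them. Here, limma 3.58.1 (lmFit and eBayes with trend, R 4.3.3) was fitted to log2(value + 1) of the 18 ligatured mice, for genes at 1 or more in at least 3 libraries. The difference by ligature was fitted in 12 WT mice. p-values are two-sided and Benjamini-Hochberg adjusted over all genes tested. An exact test of 3 against 3 mice cannot go below 0.1. edgeR 4.0.16 and DESeq2 1.42.0 on recovered reads were alternatives. Simulated data were used to test limma and edgeR but not DESeq2. Named genes were the 10 largest rises and 10 largest falls called with each mouse left out, the 10 smallest p, and genes of the lists. Replicate libraries differed beyond sampling noise. Genes and lists were chosen with earlier results of these data known. A gene of the lipolysis list is not reported here. Positions are from GENCODE M21 (GRCm38).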

Additional observations from a re-analysis of the deposited data

Results flagged for a closer look

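The diet effect with ligature differed between WT and CCL19-KI mice (limma, adjusted over all genes tested) for 8 of the genes named here. The difference, WT minus CCL19-KI on the log2 scale, was 3.19 for *Rnu3a* (adjusted p = 0.0286), -2.14 for *Gm20458* (adjusted p = 0.0367) and -1.90 for *Zfp771* (adjusted p = 0.00203). *Zfp771* was at 3.49, 4.48 and 4.84 CPM with ND and 7.00, 6.43 and 4.31 CPM with the 40% HFD in CCL19-KI mice. *Rnu3a* was at 8.49, 16.6 and 10.1 CPM in WT mice on the 40% HFD and at 1.88, 0 and 0.884 CPM on the 60% HFD.

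For 5 further genes, the difference was 4.44 for *Rims1* (adjusted p = 0.000198), 2.70 for *Ttll7* (adjusted p = 0.000220), 2.62 for *Nsg2* (adjusted p = 0.000419), 2.09 for *Pip5k1b* (adjusted p = 0.000479) and 2.34 for *Dab1* (adjusted p = 0.000479). *Rims1*, a synaptic gene, was at 0, 0.0507 and 0 CPM with ND and 1.098, 0.0633 and 0.0802 CPM with the 40% HFD in WT mice, and at 22.7, 14.5 and 17.6 against 0, 0.0707 and 0.439 CPM in CCL19-KI mice. The high values were those of the ligatured CCL19-KI mice on ND.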

How the results depend on the processing

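The number of higher DEGs, 731, was 405 with a pseudocount of 5, 230 with a ratio of 2, 1118 with sample quality weights and 1135 without ND replicate 3 and 40% HFD replicate 2 together, a choice made after seeing the data. Lower DEGs, 691, came to 369 with a pseudocount of 5, 445 with a mean of at least 5, 234 with a ratio of 2 and 1049 without both libraries. Leaving out 1 mouse gave 483 to 1069 higher and 431 to 911 lower DEGs, and without 40% HFD replicate 3, 62.4% of the DEGs were higher, against 51.4%. The 224 genes by adjusted p were 121 without a filter, 145 with quantile normalization, 142 with edgeR, 894 with DESeq2, 0 with only the 2 groups compared, 37 with all 36 mice, 412 with a hepatocyte score as covariate, 1413 with quality weights, 682 without both libraries and 27 to 724 without 1 mouse. The cause was not tested. The difference by ligature, 0 genes, was 1 with edgeR and 0 to 149 without 1 mouse. That by genotype, 79, was 39 with edgeR and 43 to 330. The 60% HFD against the 40% HFD, 0, was 1 with a pseudocount of 5 and 0 to 5.

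With the replicate block, 743 genes were higher and 672 lower, 166 passed by adjusted p, and the differences by ligature, by genotype and between the diets gave 0, 78 and 0. Same-numbered mice deviated from their group means with correlations of 0.20, -0.44 and -0.53. The highest correlation, 0.55, was that of ND replicate 3 and 40% HFD replicate 2, the libraries with male germ cell genes and low hepatocyte levels. With 3 mice per group, such correlations cannot decide whether same-numbered mice shared a batch.

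For single genes, 1623 values kept direction and call, 159 lost the call, 18 gained it and 7 changed sign: *Pfkfb3* (-0.0251 with quantile normalization), *H2-Aa* (-0.0696 with it, -0.0373 with quality weights and -0.0638 without both libraries), *Csf1r* (0.0627) and *Gpnmb* (0.0207) with quality weights, and *Kap* (1.32 with a pseudocount of 0.1). The log2 fold change of *Slc5a7* ran from 2.49 to 7.53 and that of *Mup2* from 2.45 to 7.26, lowest with a pseudocount of 5 and highest with DESeq2. With 1 mouse left out, 595 values kept direction and call, 166 lost the call, 2 gained it and 23 changed sign. The sign changed for *Atp5a1* (-0.0095 to 0.37), *Pfkfb3* (-0.13 to 0.49), *Akt2* (-0.18 to 0.10), *Cd74* (-0.24 to 0.11), *H2-Aa* (-0.17 to 0.17), *Csf1r* (-0.14 to 0.0868), *Ccl19* (-0.10 to 0.57), *Gpnmb* (-0.43 to 0.0414), *Cyp2b9* (-0.17 to 0.93), *Acot3* (-1.47 to 0.88), *Kap* (-0.64 to 1.213) and *Dab1* (-0.0123 to 0.25). None of these was a DEG. Genes with few reads, such as *Tnf*, are limited by depth.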

Other observations

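Genes that rose lay near each other at 2 places, which were looked at after the values were seen. *Mest* (chromosome 6, 30723547-30748465, GRCm38) and *Klf14* (30956023-30959078) lie 207.6 kb apart, and *Copg2*, which overlaps the end of *Mest*, was the tested gene between them. *Copg2* was at 57.4, 45.2 and 56.3 CPM with ND and 100.05, 70.3 and 82.1 CPM with the 40% HFD (log2 fold change 0.65 ± 0.20, limma adjusted p = 0.124). All 3 met the DEG criteria, and without ligature their log2 fold changes were -0.86, -1.77 and -0.58. *1700047G03Rik* lies 56.99 kb from *Npr3* on chromosome 15. *Gm5144*, which overlaps the start of *Npr3*, was at 0.621, 1.77 and 4.72 against 5.27, 3.16 and 6.90 CPM (log2 fold change 1.00 ± 0.43, limma adjusted p = 0.246). The libraries were directional, but the methods do not say whether strand was used in counting. If it was not, reads of overlapping genes cannot be told apart.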
